A study of Mus musculus with 6 samples.

Results

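The ADAM and ADAMTS genes of mouse liver were examined in whole-liver RNA of mice in which the kinase TAK1 can be deleted from endothelium. The group was taken as every row of the expression table whose symbol begins with Adam, Adamts, Adamtsl or Adamdec followed by a digit, apart from a row that is not reported here. This gave 57 genes of 24318 rows. All animals were of C57BL/6 background and carried VEcadCreERT2 and TAK1flox/flox, that is, a tamoxifen-activated Cre recombinase under the promoter of VE-cadherin, an endothelial gene, together with loxP-flanked alleles of Map3k7, the TAK1 gene. The 3 knockout livers came from mice given tamoxifen and the 3 control livers from mice given none, so the effects of the deletion and of tamoxifen cannot be told apart. The labels give no age, and they do not say whether each library is 1 animal. The p-values therefore reflect only how these libraries vary, which may be technical.

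ADAM proteins are membrane-anchored metalloproteases that cut the outer part off other membrane proteins, releasing cytokines, growth factors and receptors. ADAMTS proteins are secreted relatives with thrombospondin repeats that cut proteoglycans, procollagens and other matrix proteins, and ADAMTS-like proteins share the repeats but have no protease domain. In liver, ADAM10 and ADAM17 are known for shedding from hepatocytes, endothelium and leukocytes, and several ADAMTS enzymes are known from stellate cells and fibroblasts.

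Values are FPKM, fragments scaled to transcript length and library size, which allow levels of different genes to be compared per length. Log2 fold changes compare knockout with control after 0.5 FPKM was added to each value, which makes changes of low genes look smaller, and are given with their standard error. A gene was tested when its mean over the 6 libraries was at least 0.5 FPKM, and called when limma's Benjamini-Hochberg adjusted p over all 11842 tested genes was under 0.05. The total number of reads is unknown, but by the spacing of low values the libraries differed little, at 0.918 to 1.08 times the depth of control 1. Map3k7 itself measured 8.498, 9.02 and 9.14 FPKM in the controls and 9.28, 9.31 and 7.35 FPKM in the knockouts (limma adjusted p = 0.868). Other liver cells also express Map3k7, and this value does not check the labels.

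Knockout livers had more RNA of 7 ADAM and ADAMTS genes. The leukocyte sheddase Adam8, the sheddases Adam10, Adam15 and Adam19, the proteoglycan-cleaving Adamts1, the procollagen-processing Adamts2 and the matrix glycoprotein gene Adamtsl2 rose. Apart from Adam8, the group means of these genes differed by 1.59 to 4.75 times. Of the 57 genes, 21 were listed at 0 in every library, 18 were above 0 in some library but too low to test, and 18 were tested. Of the 18 tested, 7 were called higher, against 14.1% of all tested genes, and 0 were called lower by limma, against 13%. At an unadjusted p under 0.05 from limma, 8 were higher and 1, Adam23, was lower. The share of all tested genes at that threshold was not computed, so these counts are a description only. The median log2 fold change of the 18 was 0.57, against -0.0007 for all tested genes. With libraries scaled to the same total, 6 members were called higher, and calls among all genes shifted from 1669 higher and 1534 lower to 1354 and 2076. All 3 knockout libraries lay above all controls for 9 of the 18 and below them for 1, against 22.4% and 21.1% of all tested genes. Of the 18, 4 had a control mean under 0.5 FPKM and so passed the filter through the knockout group, and 2 of these (Adam8 and Adam19) are among the 7 called. Among the 14 with a control mean of at least 0.5 FPKM, 5 were called higher. The share of all genes with such a control mean was not computed, and the 14.1% is of a different set.

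**Figure D1:**
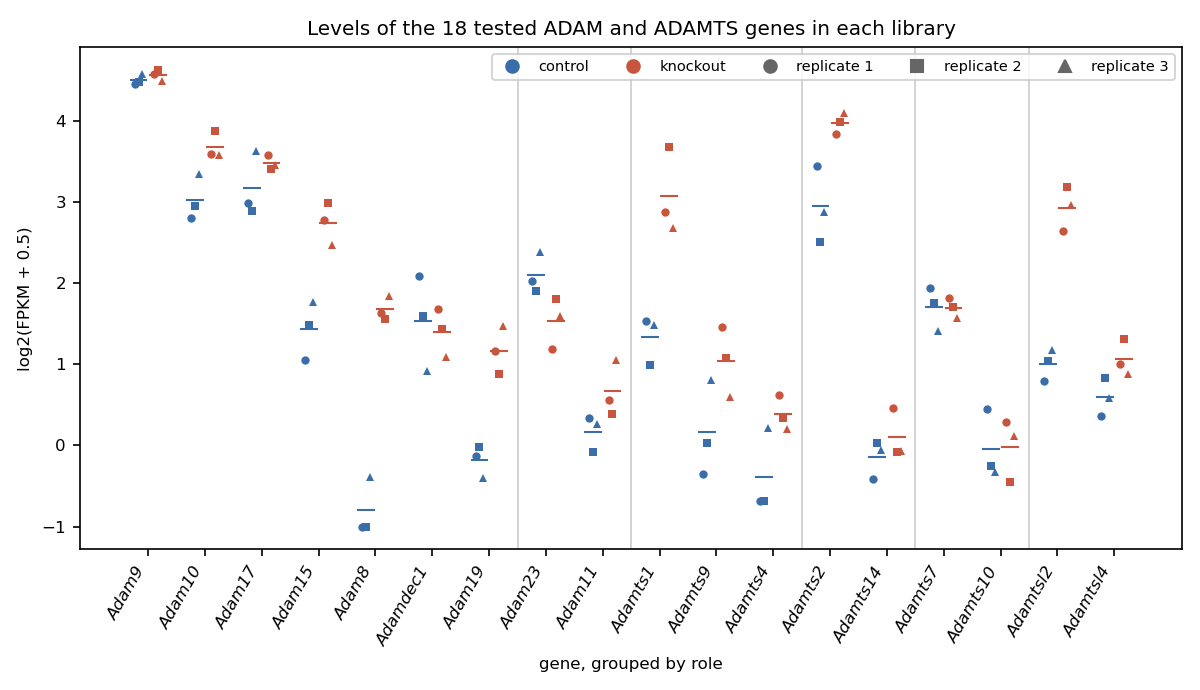
Level of each of the 18 tested genes on the log2(FPKM + 0.5) scale, with 1 point per library (blue control, red knockout, shapes for replicate numbers), a bar at the mean of the 3 libraries, and grey lines between groups of genes by role. All 3 knockout libraries lie above all 3 controls for 9 genes and below them for 1 gene, Adam23.

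Adam9, a widely expressed sheddase, measured 21.5, 21.8 and 23.3 FPKM in the controls and 23.4, 24.3 and 21.9 FPKM in the knockouts. It stood first in both groups, and its range did not overlap that of the next gene in either. Its log2 fold change was 0.06 ± 0.13, with a 95% interval of -0.24 to 0.36 (limma adjusted p = 0.768). Adam9 made up 31.6% to 35.8% of the summed FPKM of the 57 genes in the controls and 21.6% to 22.9% in the knockouts. The sum itself was 60.8 to 74.0 FPKM in the controls and 99.5 to 113 FPKM in the knockouts.

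Adam10 encodes the sheddase that makes the first ligand-induced cut in Notch receptors. It measured 6.47, 7.21 and 9.65 FPKM in the controls and 11.6, 14.1 and 11.5 FPKM in the knockouts. All knockout libraries were above all controls, with control 3 the nearest. Adam10 rose by a log2 fold change of 0.65 ± 0.19 (limma adjusted p = 0.0315). The call depended on every library but control 3, being lost when any of those was left out (log2 fold changes of 0.54 to 0.70), with every library scaled to the same total (0.54, adjusted p = 0.0982) and without the mean-variance trend (adjusted p = 0.0508). Over all alternatives its adjusted p ran from 0.0152 to 0.115.

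Adam17 encodes the enzyme that releases tumour necrosis factor and many ligands of the EGF receptor. It measured 7.45, 6.92 and 11.9 FPKM in the controls and 11.5, 10.1 and 10.4 FPKM in the knockouts, and the groups overlapped because control 3 was the highest of all 6. Its log2 fold change was 0.31 ± 0.21, with a 95% interval of -0.17 to 0.79 (limma adjusted p = 0.320). Without control 3 it was 0.54 ± 0.17 (limma adjusted p = 0.0519). That adjusted p was the lowest of all alternatives, and the highest was 0.665. The ratio of Adam10 to Adam17 was 0.868, 1.04 and 0.813 in the controls and 1.01, 1.402 and 1.10 in the knockouts, which overlap. The annotated exons of Adam17 share 311 bases, 4.35% of its exon bases, with the neighbouring gene Iah1 on the other strand (GENCODE, GRCm38). Iah1 measured 178 ± 36.6 FPKM in the controls and 94.4 ± 8.87 FPKM in knockout livers (SD, n = 3), and its part in the Adam17 values was not tested.

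Adam15 encodes metargidin, a sheddase found in endothelium and at cell junctions. It measured 1.58, 2.29 and 2.91 FPKM in the controls and 6.34, 7.41 and 5.02 FPKM in the knockouts. The groups were well apart, and Adam15 rose by a log2 fold change of 1.31 ± 0.25 (limma adjusted p = 0.00446). It shares 20.6% of its exon bases with an unnamed transcript on the other strand, and the reads of both cannot be told apart without strand.

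Adam8 showed the largest change among the 18. It was listed at 0, 0 and 0.263 FPKM in the controls and at 2.60, 2.44 and 3.10 FPKM in the knockouts. ADAM8 is a protease of neutrophils, monocytes and macrophages. Its log2 fold change was 2.48 ± 0.30 (limma adjusted p = 5.26e-04). That value depends on the added constant, at 4.19 with a pseudocount of 0.1 and 1.78 with a pseudocount of 1, and was called with each. In control it stood last of the 18 in level, and in knockout livers at rank 9, between Adamts7 and Adam23, whose ranges overlap with its own. Markers of leukocytes moved with it. All 10 neutrophil markers and all 7 monocyte markers listed were called higher, against 14.1% of all tested genes. Of these markers, Camp, Ltf, Mmp8, Mmp9, Cxcr2, F13a1, Chil3 and Vcan had control means under 0.5 FPKM. They passed the filter through the knockout group. Summed levels of the neutrophil markers were 36.6 to 73.0 FPKM in the controls and 1722 to 1807 FPKM in the knockouts. Those of the monocyte markers were 26.2 to 30.8 FPKM in the controls and 277 to 293 FPKM in the knockouts. No neutrophil or monocyte marker listed was at 0 in all libraries of a group. The part of leukocyte number in the Adam8 values was not tested, and in whole-liver RNA more cells of a type and more RNA per cell cannot be told apart.

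Adam19, or meltrin beta, encodes a sheddase of neuregulin. It measured 0.418, 0.490 and 0.256 FPKM in the controls and 1.74, 1.34 and 2.27 FPKM in the knockouts. Every knockout library was above every control, and Adam19 rose by a log2 fold change of 1.35 ± 0.29 (limma adjusted p = 0.00802). Adam12, or meltrin alpha, known from activated stellate cells and fibroblasts, was too low to test. It measured 0.168, 0 and 0.258 FPKM in the controls and 0.375, 0.538 and 0.365 FPKM in the knockouts, with no overlap. Adamdec1, the gene of a soluble relative made by macrophages and dendritic cells, measured 3.76, 2.53 and 1.39 FPKM in the controls and 2.70, 2.21 and 1.63 FPKM in the knockouts. The groups overlapped, and its log2 fold change was -0.13 ± 0.32 (limma adjusted p = 0.794). The sign of that value turned without control 1 (0.14) and without knockout 3 (0.02). In the same livers 7 of 10 macrophage and Kupffer cell markers were called higher, against 14.1% of all tested genes. Clec4f, Timd4 and Marco were not called, and their groups overlapped. The list summed to 559 to 1221 FPKM in the controls and 1535 to 1696 FPKM in the knockouts. Of the dendritic cell markers, 2 were tested and 0 were called. Adam28 was listed at 0 in all 6 libraries, and Adam33 was above 0 only in knockout 1, at 0.269 FPKM.

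**Figure D2:**
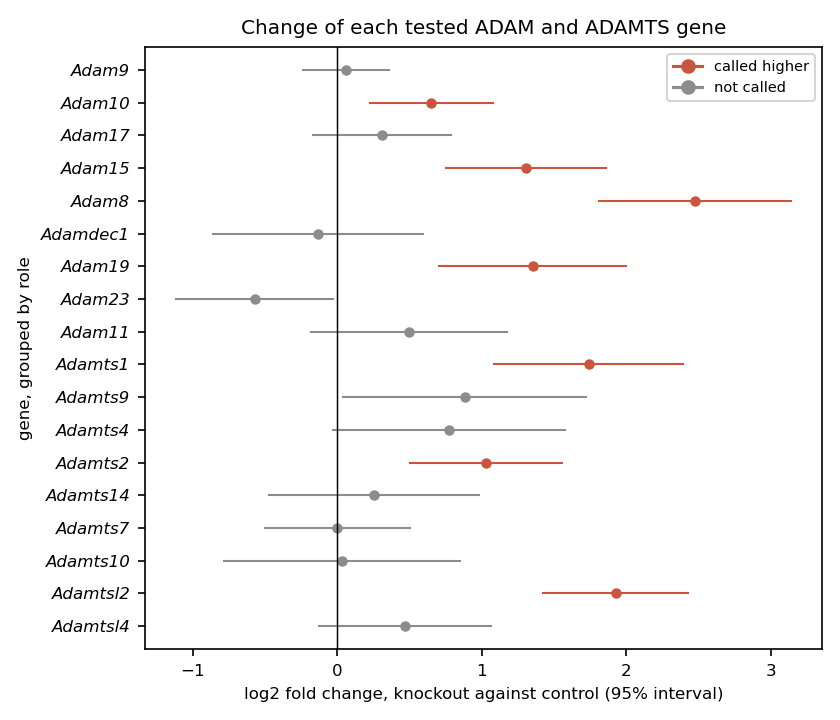
Log2 fold change of knockout against control for each of the 18 tested genes, on the log2(FPKM + 0.5) scale, with its 95% interval from limma; red marks genes called higher and grey those not called. The 7 called genes have estimates from 0.65 (Adam10) to 2.48 (Adam8), and 0 genes were called lower.

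Adam11, Adam22 and Adam23 encode ADAM proteins without a working protease site, known as surface partners of LGI proteins in the nervous system. Adam23 was the only tested gene whose knockout libraries all lay below the controls. It measured 3.57, 3.23 and 4.73 FPKM in the controls and 1.79, 2.99 and 2.53 FPKM in the knockouts. Its log2 fold change of -0.57 ± 0.24 missed the threshold (limma adjusted p = 0.111, with 0.0859 to 0.291 over the alternatives). Adam11 measured 0.767, 0.442 and 0.697 FPKM in the controls and 0.979, 0.807 and 1.57 FPKM in the knockouts, above the controls in all 3, with a log2 fold change of 0.50 ± 0.30 (limma adjusted p = 0.262). Adam22 was at or below 0.180 FPKM in every library.

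Among the ADAMTS enzymes that cut hyaluronan-binding proteoglycans such as versican, Adamts1 rose. It measured 2.41, 1.48 and 2.30 FPKM in the controls and 6.83, 12.3 and 5.91 FPKM in the knockouts. Knockout 2 was the highest, and even the lowest knockout library was above every control. The log2 fold change was 1.74 ± 0.29 (limma adjusted p = 0.00257), and the call held in all 18 alternatives, with log2 fold changes of 1.44 to 1.94. Adamts9 measured 0.287, 0.521 and 1.25 FPKM in the controls and 2.26, 1.61 and 1.01 FPKM in the knockouts. Control 3 lay above knockout 3, and the log2 fold change of 0.88 ± 0.37 did not pass (limma adjusted p = 0.110). Without control 3 the control mean of Adamts9 went from 0.687 to 0.404 FPKM, the log2 fold change was 1.204 and the adjusted p 0.0407, the lowest of all alternatives (the highest was 0.310).

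Adamts4, the gene of an aggrecanase, had the same library apart. It measured 0.120, 0.125 and 0.664 FPKM in the controls and 1.03, 0.770 and 0.652 FPKM in the knockouts, and its log2 fold change was 0.77 ± 0.36 (limma adjusted p = 0.140). Without control 3 its control mean went from 0.303 to 0.122 FPKM, the log2 fold change was 1.07 and the adjusted p 0.0487, again the lowest of all alternatives (the highest was 0.335). Control 3 was the highest control library for 9 of the 18 tested genes and for 4 of the 7 called. Adamts5, a second aggrecanase, stood just under the filter at a mean of 0.471 FPKM, with 0.583, 0.275 and 0.390 FPKM in the controls and 0.608, 0.566 and 0.403 FPKM in the knockouts. Adamts15 lay between 0.152 and 0.404 FPKM, and Adamts8 and Adamts20 were listed at 0 throughout.

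Adamts2 encodes the main enzyme that removes the amino-terminal propeptide from procollagens I and III. It measured 10.4, 5.21 and 6.85 FPKM in the controls and 13.8, 15.4 and 16.6 FPKM in the knockouts. The groups did not overlap, and Adamts2 rose by a log2 fold change of 1.03 ± 0.23 (limma adjusted p = 0.0109). It was at rank 4 in level among the 18 in control and at rank 2 in knockout livers, where its range overlapped that of Adam10. Its relatives Adamts14 and Adamts3 were near or under the filter. Adamts14, the tested gene with the lowest mean (0.503 FPKM), measured 0.251, 0.522 and 0.463 FPKM in the controls and 0.882, 0.447 and 0.455 FPKM in the knockouts, and the log2 fold change was 0.25 ± 0.32 (limma adjusted p = 0.607). Adamts3, which acts on the lymphatic growth factor VEGF-C, measured 0.113, 0 and 0 FPKM in the controls and 0.163, 0.424 and 0.185 FPKM in the knockouts and was not tested.

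Adamts7 and Adamts12 encode proteases that cut cartilage oligomeric matrix protein. Adamts7 measured 3.33, 2.87 and 2.17 FPKM in the controls and 3.03, 2.78 and 2.47 FPKM in the knockouts. The groups overlapped, with a log2 fold change of -0.0015 ± 0.22 and a 95% interval of -0.50 to 0.50 (limma adjusted p = 0.997). Adamts12 stood under the filter with a mean of 0.431 FPKM, at 0.0693, 0 and 0.192 FPKM in the controls and 1.13, 0.296 and 0.903 FPKM in the knockouts, which did not overlap. With the filter at 0.1 FPKM it was called higher (log2 fold change 1.07 ± 0.33, limma adjusted p = 0.0466), where 12.1% of all genes tested were called higher. Its control mean was 0.0870 FPKM and its knockout mean 0.775 FPKM, so it passed that filter through the knockout group, and the call is given as a description only. Of the other 7 untested genes that reached that filter, none was called, with adjusted p of 0.192 to 0.965. Adamts10, a protease linked to fibrillin microfibrils, measured 0.866, 0.337 and 0.299 FPKM in the controls (mean 0.501, and 0.318 without control 1) and 0.723, 0.231 and 0.588 FPKM in the knockouts, and the log2 fold change was 0.03 ± 0.36 (limma adjusted p = 0.962). Adamts6 lay between 0.0981 and 0.452 FPKM, Adamts16, Adamts17 and Adamts19 were each above 0 in 1 library, and Adamts18 was listed at 0 throughout.

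Adamtsl2, which encodes a secreted glycoprotein that binds fibrillin and a latent TGF-beta binding protein, had the lowest adjusted p of the 18. It measured 1.23, 1.56 and 1.77 FPKM in the controls and 5.77, 8.63 and 7.28 FPKM in the knockouts. All 3 knockout libraries lay far above the highest control. Its log2 fold change was 1.93 ± 0.22 (limma adjusted p = 4.56e-04), with 1.70 to 2.17 over the alternatives. Adamtsl4, whose product also binds fibrillin, measured 0.786, 1.28 and 1.003 FPKM in the controls and 1.504, 1.98 and 1.34 FPKM in the knockouts. The groups did not overlap but lay close, and the log2 fold change of 0.47 ± 0.26 did not pass (limma adjusted p = 0.225). Adamtsl1, Adamtsl3 and Adamtsl5 stayed at or below 0.539 FPKM in every library.

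**Figure D3:**
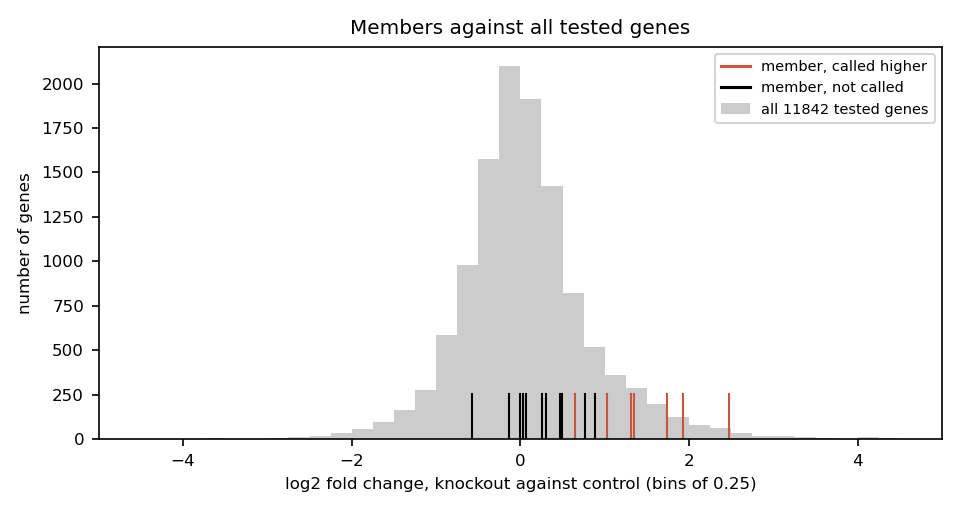
Number of tested genes by log2 fold change of knockout against control (grey bars, bins of 0.25, x axis cut at -5 and 5), with a vertical line for each of the 18 tested ADAM and ADAMTS genes (red called higher, black not called). The lines run from -0.57 (Adam23) to 2.48 (Adam8), and 15 of 18 lie above 0. The median of all tested genes was -0.0007. With libraries scaled to the same total, 13 lie above 0, as Adam9 and Adamts10 fall below 0. The median of all genes was then -0.10.

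The remaining 21 ADAM genes are known mainly from testis and epididymis. Of them 17 were listed at 0 in all libraries. Adam1a, Adam4, Adam5 and Adam21 were above 0 in 1 or more libraries, at 0.138 to 0.405 FPKM, and none was tested.

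RefSeq promoter windows, on build GRCm38.p6, were found for 30 of the 57 genes and for all 7 that rose. The 250 bases before each start site were searched on both strands for the NF-kB motif and for the AP-1 motif TGANTCA, since TAK1 is known to act upstream of both factors, and on the gene's own strand for TATAAA. Of the 7 genes that rose, 1 held an NF-kB match and 1 an AP-1 match, both Adam19, in 1 of its 3 windows. A gene was counted if any of its windows held a match. The 7 genes had 9 windows, whereas the shares that follow are of single windows, so the measures are unlike. Over all 32851 windows, 7.25% held an NF-kB match, 6.75% an AP-1 match and 7.59% TATAAA. The last of these was found in Adamts1 and Adamtsl2, close to the start site, and Adamts9, which was not called, held a match to NF-kB. Windows were found for 12 of the 18 tested genes, so the others were not searched. The stretches around the matches are shown for genes that changed in the same direction, with the matches in capitals. Adam19 shares no kind of match with Adamts1 or Adamtsl2. In Adam19 (chr11:46055828-46055907, plus strand) the marks are the AP-1 match and then 2 overlapping NF-kB matches. In Adamts1 (chr16:85803115-85803170, minus strand) and Adamtsl2 (chr2:27079324-27079378, plus strand) the mark is TATAAA.
Adam19: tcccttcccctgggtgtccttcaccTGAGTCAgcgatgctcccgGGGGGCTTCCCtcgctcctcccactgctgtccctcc
Adamts1: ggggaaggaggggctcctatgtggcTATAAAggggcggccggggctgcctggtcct
Adamtsl2: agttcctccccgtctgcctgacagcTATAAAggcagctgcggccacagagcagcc
A match describes the letters only, and binding was not measured.

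The activity of these proteases is set by inhibitors, partners and activators. Of 18 tested genes of these kinds, 2 were called higher and 3 lower, shares close to the 14.1% and 13% of all tested genes, with a median log2 fold change of 0.06. Only 1 was called higher when any 1 library was left out, and 1 of the 2, Tspan5, had a control mean under 0.5 FPKM. Timp3, the matrix-bound inhibitor of ADAM17 and of aggrecanases, fell. It measured 7.27, 7.45 and 8.25 FPKM in the controls and 3.84, 3.98 and 3.34 FPKM in the knockouts, with no overlap and a log2 fold change of -0.95 ± 0.17 (limma adjusted p = 0.00385). Timp1, which inhibits ADAM10, was listed at 0, 1.84 and 2.74 FPKM in the controls and at 2.27, 4.40 and 4.48 FPKM in the knockouts, and did not pass (log2 fold change 1.39, limma adjusted p = 0.124). Without control 1, where it was listed at 0, the log2 fold change was 0.57 (limma adjusted p = 0.279).

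Rhbdf2 encodes iRhom2, which carries ADAM17 to the cell surface. It rose, from 5.69, 5.40 and 5.02 FPKM in control to 9.85, 10.6 and 10.2 FPKM in the knockouts, and the log2 fold change was 0.87 ± 0.16 (limma adjusted p = 0.00365). Its relative Rhbdf1 measured 1.27, 2.37 and 2.197 FPKM in the controls and 3.06, 3.91 and 3.63 FPKM in the knockouts (limma adjusted p = 0.0532). Both groups of libraries were apart for each of these genes.

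The tetraspanins of the TspanC8 group bind ADAM10 and steer which proteins it cuts. Tspan15 fell, from 1.59, 3.18 and 3.16 FPKM in control to 0.234, 0.654 and 0.665 FPKM in the knockouts (log2 fold change -1.61 ± 0.33, limma adjusted p = 0.00656). Tspan5 measured 0.574, 0.595 and 0.264 FPKM in the controls and 1.10, 1.38 and 1.56 FPKM in the knockouts. It was called higher (log2 fold change 0.93 ± 0.29, limma adjusted p = 0.0415), but the call was lost without any 1 library and in 3 of the alternatives that kept all libraries, with adjusted p up to 0.109. The most abundant of them, Tspan14, measured 15.9, 14.02 and 16.0 FPKM in the controls and 17.1, 15.02 and 21.2 FPKM in the knockouts, which overlap (limma adjusted p = 0.413). Of the convertases that remove the propeptides of these proteases, Pcsk6 was called lower, at 109 ± 4.96 FPKM in the controls and 81.7 ± 1.92 FPKM in knockout livers (SD, n = 3, limma adjusted p = 0.0317). Its call was lost without any 1 library other than knockout 2 and in 3 alternatives with all libraries, with adjusted p up to 0.120. Furin had a log2 fold change of -0.02 ± 0.13.

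**Figure D4:**
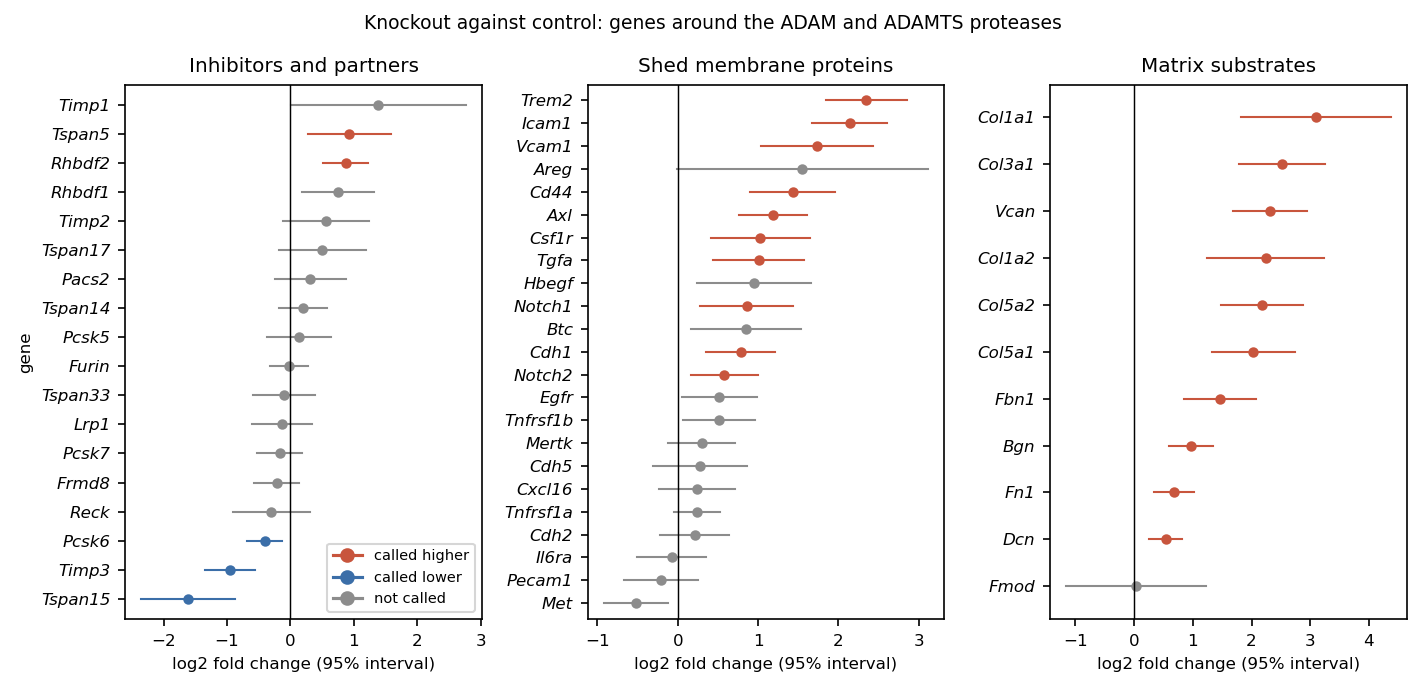
Log2 fold change of knockout against control, with its 95% interval, for tested inhibitors and partners of the proteases (left), membrane proteins they are known to shed (middle) and matrix proteins that ADAMTS enzymes are known to cut or bind (right); red was called higher, blue lower and grey not called. Timp3 and Tspan15 lie below 0, and 10 of 11 matrix genes were called higher.

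Genes of proteins that these proteases are known to cut were also examined. Of 23 tested membrane proteins shed by ADAM proteases, 10 were called higher and 0 lower by limma, against 14.1% and 13% of all tested genes. At an unadjusted p under 0.05, 1, Met, was lower, and the share of all tested genes there was not computed. With libraries scaled to the same total, 1 gene was called lower. The count of 10 went to 6 without control 1 and to 5 without control 2. In the same fits, calls of higher among all tested genes went from 1669 to 1193 and to 1166. The median log2 fold change of the 23 was 0.78. The endothelial adhesion molecule Vcam1 measured 9.39, 12.99 and 18.9 FPKM in the controls and 45.5, 67.0 and 30.0 FPKM in the knockouts (log2 fold change 1.73 ± 0.31, limma adjusted p = 0.00359). Tnf, the classic ADAM17 substrate, was too low to test, at 0.294, 0.610 and 0 FPKM in the controls and 1.13, 0 and 0.956 FPKM in the knockouts.

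Of 11 tested matrix genes, 10 were called higher, against 14.1% of all tested genes, and the remaining gene, Fmod, was not called (limma adjusted p = 0.972). Among the 10, Vcan had a control mean of 0.104 FPKM and passed the filter through the knockout group. The median log2 fold change of the 11 was 2.03. The versican gene Vcan, a substrate of ADAMTS1, ADAMTS4 and ADAMTS9, measured 0.101, 0.0465 and 0.165 FPKM in the controls and 3.10, 2.26 and 2.19 FPKM in the knockouts (log2 fold change 2.31 ± 0.28, limma adjusted p = 5.43e-04), and it is also among the monocyte markers counted above. The procollagen gene Col3a1, a substrate of ADAMTS2, measured 8.97, 8.90 and 21.2 FPKM in the controls and 58.0, 64.5 and 95.3 FPKM in the knockouts (log2 fold change 2.52 ± 0.32, limma adjusted p = 7.32e-04). Col1a1 was at 1.67, 3.18 and 12.8 FPKM in the controls and 28.9, 36.8 and 60.5 FPKM in the knockouts (log2 fold change 3.10 ± 0.57, limma adjusted p = 0.00392). The fibrillin gene Fbn1 rose from 0.632 ± 0.202 to 2.61 ± 0.580 FPKM (SD, n = 3, limma adjusted p = 0.00431). For these matrix genes control 3 was the highest control, as it was for Adamts4 and Adamts9.

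Markers of several cell types moved in the same libraries. The 11 stellate cell and fibroblast markers summed to 256 to 295 FPKM in the controls and 412 to 531 FPKM in the knockouts. Of them, 7 were called higher, against 14.1% of all tested genes. Of these 7, Dcn, Col1a1 and Col3a1 are also counted among the matrix genes, and Trem2 and Csf1r are counted both as shed proteins and as macrophage markers, so these lists are not separate observations. The quiescent stellate marker Lrat was not called (log2 fold change 0.65, limma adjusted p = 0.0625), though all its knockout libraries lay above all controls. Reln was not called either (log2 fold change 0.18, limma adjusted p = 0.585), and its groups overlapped. Of 8 sinusoidal endothelial markers 7 were called lower. Their list summed to 150 to 220 FPKM in the controls and 32.9 to 35.4 FPKM in the knockouts. The marker not called, Stab2, had a log2 fold change of 0.32, and its groups overlapped. Of 10 general endothelial markers 6 were called lower (78.0 to 122 and 55.3 to 65.1 FPKM). Cdh5 (log2 fold change 0.28), Emcn (0.53), Pecam1 (-0.21) and Eng (-0.39) were not called. Among these the groups overlapped for all but Eng, whose knockout libraries lay below the controls. Of 7 hepatocyte markers 4 were called lower. The share of all tested genes called lower was 13%. No marker of these lists, nor of the macrophage list, was at 0 in all libraries of a group. The part of these cell types in the changes of Adam15, Adam19, Adamts1, Adamts2 and Adamtsl2 was not tested.

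**Figure D5:**
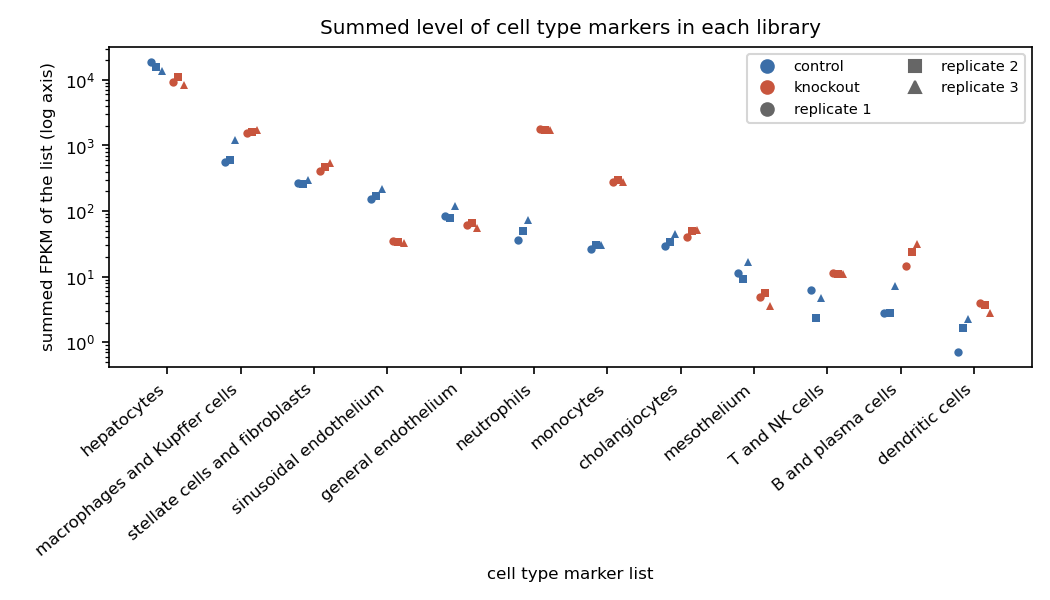
Summed FPKM of each cell type marker list, on a log axis, with 1 point per library (blue control, red knockout, shapes for replicate numbers). Neutrophil and monocyte sums are higher in all knockout libraries (1722 to 1807 FPKM against 36.6 to 73.0 for neutrophils), and sinusoidal endothelial sums are lower (32.9 to 35.4 against 150 to 220 FPKM).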

How the data were processed

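Whole-liver RNA of 3 control and 3 knockout libraries was read from both ends on a HiSeq instrument, per the labels' protocols. The authors deposited FPKM values per gene, 1 column per library. Per the submitters' processing notes, the reads were handled with Trimmomatic 0.33 and with TopHat2 2.1.0 on build mm9, and the values came with Cuffnorm 2.2.1 and Cuffdiff 2.2.1; the annotation and the strand setting are not given in the sources used here. Without counts, no count model or counting interval was possible. Alb, listed at 0 in every control, was left out as a failed estimate; any 0 here may be one. A row that fits the naming pattern and a gene of the related lists are not reported here.

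Groups were compared with limma 3.58.1 in R 4.3.3 with a trend in the variance and two-sided tests, after log2(FPKM + 0.5), over genes whose mean reached 0.5 FPKM, with Benjamini-Hochberg adjustment over all of them. The fit was tested on simulated data. Relative depth came from low values (under 0.3 FPKM in the mean) lying within 0.01 log2 units of steps of up to 4 fragments (77.2% to 80.7% of those compared). Alternatives were other pseudocounts, filters, scalings and variance models, each library left out and a replicate block, on the same genes as the main fit unless the filter changed. The members and lists were chosen with earlier results of these data known. The text names each member and, per list of related genes, some called genes of large change and known partners; Furin, Lrat, Reln, Fmod, Met, Rhbdf1 and Iah1 were chosen after their values were seen. Overlaps of exons and promoter sequences come from GENCODE and RefSeq on GRCm38, not the authors' build. Figures used matplotlib 3.10.9.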

Additional observations from a re-analysis of the deposited data

How the results depend on the processing

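Members called higher numbered 7 and ranged from 6 to 9 over 18 alternatives, and 0 were called lower in each. Of the 7, all but Adam10 were called in every alternative, with adjusted p of at most 0.0396. Calls of Adam10, Adamts4 and Adamts9 changed. Signs turned for 4 genes that were never called. Adam9 went to -0.057 and Adamts10 to -0.028 with libraries scaled to the same total, and Adamts10 ranged from -0.12 to 0.28, Adamts7 from -0.14 to 0.12 and Adamdec1 from -0.44 to 0.14 with single libraries left out or other scalings; Adamts7 was at 0.00037 with a pseudocount of 0.1 and 0.069 with the same upper quartile. Scaling to the same total moved the median of all genes to -0.10 and that of the members to 0.48. Among all genes, 1669 were called higher and 1534 lower. With 1 library left out, those called higher ranged from 1166 to 1629, at 1193 without control 1 and 1166 without control 2. Those called lower ranged from 935 to 1484, at 990 without control 1 and 935 without control 2. Of inhibitors and partners, 1 was called higher (main 2) with a pseudocount of 0.1, a filter of 1 FPKM, the same total, and each library left out. Shed membrane proteins called higher numbered 10 and ranged from 5 to 11 with 1 library left out (6 without control 1, 5 without control 2), and 1 was called lower with the same total. Samples with equal replicate numbers did not deviate together (correlations of -0.01, 0 and 0.002), and the replicate block gave 7 members higher and 0 lower; it changed no member's call, but Timp1 was called (adjusted p = 0.028) and Tspan5 and Pcsk6 were not. The causes were not tested. Depth is unknown, so changes of genes under the filter may not be detectable.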
